A study of Mus musculus with 30 samples.

Results

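The genes described are 8 T cell cytokines: the lymphotoxin genes Lta and Ltb, Tnf, Tnfsf11 (which encodes RANKL), the colony-stimulating factor genes Csf1 and Csf2, and the helper cytokine genes Il2 and Il4. All probe sets whose single gene symbol was one of these names were taken, which gave 13 of the 12488 probe sets on the array. An Affymetrix control of Il4 was among them, so 12 of the 12422 non-control probe sets were tested. The series as a whole named 8251 genes alone.

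Lymphotoxin alpha is secreted as a homotrimer that binds the TNF receptors, or is held at the cell surface by lymphotoxin beta in a complex that binds the lymphotoxin beta receptor and shapes lymph nodes. TNF and RANKL are trimeric ligands of the same superfamily, and their receptors signal through TRAF adaptors to NF-kB. CSF1 and CSF2 act on macrophages, dendritic cells and granulocytes, IL-2 is a growth and survival factor for T cells that regulatory cells consume through CD25, and IL-4 is the signature cytokine of T helper 2 cells.

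The 30 Affymetrix MG-U74Av2 arrays carried RNA of sorted CD4+ T cells. All cells came from NOD mice transgenic for the BDC2.5 T cell receptor, which recognizes an antigen of the pancreatic islets. Pancreas set 1 came from mice given rat IgG, with no age in the labels. It held 3 arrays of regulatory (Treg) cells, sorted as CD4+CD25+CD69-, and 5 of effector (Teff) cells, sorted as CD4+CD25lo/-CD69+/-. Pancreas set 2 held 3 Treg (CD4+CD25+) and 3 Teff (CD4+CD25-) arrays from mice of 26 days given antibody to the costimulatory receptor ICOS. It also held 2 arrays of IgG-treated CD4+CD25+CD69- Treg cells, from mice of 4 weeks (replicate 1) and 26 days (replicate 2). Both pancreatic sets came from infiltrated pancreas, that is, tissue already invaded by the transgenic cells. The lymph node set, from mice of 4 weeks with no treatment named, held 5 CD4+CD25+ and 3 CD4+CD25- arrays of mesenteric nodes, and 3 of each of peripheral nodes. That receptor fixes the antigen specificity of most CD4+ cells in these mice, and the Teff gates took in resting as well as activated cells. Whether replicates are different animals is not said in the labels, and the spread behind each p-value may therefore be technical.

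Some labels conflict. The 6 arrays titled peripheral have mesenteric as their tissue, and the source name of mesenteric CD25+ replicate 2 says CD25-. The titles were followed for both. Il2ra, which encodes CD25 and so checks the sort, was higher by 2.00 on the log2 scale in IgG Treg than in Teff cells, by 1.57 in mesenteric and by 1.35 in peripheral CD25+ cells, and mesenteric CD25+ replicate 2 lay with the CD25+ arrays. The anti-ICOS Treg and Teff arrays differed in Il2ra by 1.53 ± 0.70, which was not called. Treg replicate 3 read 3.88, close to the 3.68 to 3.82 of the 3 Teff arrays of its set. All 11 measured genes of a T cell marker list were above background in every group. Replicate 3 of the IgG Treg cells of set 1 and replicate 2 of those of set 2 carry the same sample number and had r = 0.997 across probe sets, so they count as 1 sample in fits that join both pancreatic sets.

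Values are log2 intensities. A probe set was counted as above array background where it exceeded the 95th percentile of 47 probe sets of 33 genes of lens, retina, testis, muscle, heart, brain and liver on the same array. That ceiling lay between 5.20 and 5.92. Array medians ran from 25.3 to 34.5 intensity units, and the number of arrays limits the precision. Differences were tested with limma, and adjusted p is its Benjamini-Hochberg value over the 12422 probe sets, with a threshold of 0.05.

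Of the 12 tested probe sets, 6 were above background on at least 1 array. They stand for 5 genes, Lta with its 2 probe sets, Ltb, Tnf, Csf1 and Tnfsf11. Those for Lta (102630_s_at), Ltb and Tnf were above it on all 30 arrays, the Lta probe set 100327_at on 27, Tnfsf11 on 26 and Csf1 on 23. Il2, Csf2 and the 4 probe sets of Il4 were above it on none of the 30.

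Ltb, Tnf and Lta are neighbours on chromosome 17, in the order Lst1, Ltb, Tnf, Lta, Nfkbil1. RefSeq promoter windows (GRCm38.p6) were found for all 8 genes. The 250 bases before the start site are shown for the measured members whose window lies outside the gene's own annotated span, since NF-kB, to which the receptors of the TNF family signal, also acts on the promoters of several of these ligands. Capitals mark the letters GGGNNNNNCC on either strand, a simple NF-kB-type pattern whose matches can overlap. The windows are chr17:35194257-35194506 (plus strand) for Ltb, chr17:35202008-35202257 (minus) for Tnf, chr3:107760470-107760719 (minus) for Csf1 and chr14:78308044-78308293 (minus) for Tnfsf11.
Ltb: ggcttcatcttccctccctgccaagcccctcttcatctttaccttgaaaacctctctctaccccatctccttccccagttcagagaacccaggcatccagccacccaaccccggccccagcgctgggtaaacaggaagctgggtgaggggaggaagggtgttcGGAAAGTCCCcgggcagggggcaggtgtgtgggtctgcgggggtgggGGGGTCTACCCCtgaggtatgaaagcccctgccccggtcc
Tnf: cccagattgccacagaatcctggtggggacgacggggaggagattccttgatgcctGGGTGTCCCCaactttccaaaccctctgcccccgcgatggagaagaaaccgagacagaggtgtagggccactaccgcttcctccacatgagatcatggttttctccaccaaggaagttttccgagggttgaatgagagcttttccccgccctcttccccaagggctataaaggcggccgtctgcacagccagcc
Csf1: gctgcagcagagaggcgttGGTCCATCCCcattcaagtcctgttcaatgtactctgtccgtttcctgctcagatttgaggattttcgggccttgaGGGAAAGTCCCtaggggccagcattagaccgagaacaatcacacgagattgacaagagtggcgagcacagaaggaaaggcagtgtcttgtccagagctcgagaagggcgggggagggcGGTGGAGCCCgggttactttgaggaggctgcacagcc
Tnfsf11: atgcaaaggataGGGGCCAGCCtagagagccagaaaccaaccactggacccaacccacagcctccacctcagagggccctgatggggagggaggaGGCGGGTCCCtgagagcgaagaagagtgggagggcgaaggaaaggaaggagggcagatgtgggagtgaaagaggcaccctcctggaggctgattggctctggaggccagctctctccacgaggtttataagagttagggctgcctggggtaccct
The pattern occurred 4 times in the Ltb window, 1 time in Tnf, 4 in Csf1, 2 in Tnfsf11 and 2 in Lta. The windows of Il2, Csf2 and Il4 held 1, 0 and 0. Of 32841 windows of the same length in the table, 45.8% held it, so its presence does not set these genes apart. An AP-1 pattern (TGANTCA, 6.75% of windows) occurred in none of the members' windows. The letters GGAAA, the core bound by NFAT, lay in 55.6% of all windows and in a window of each of the 8 genes.

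On its brighter probe set, 102630_s_at, Lta averaged higher in the regulatory or CD25+ cells in all 4 sort comparisons. The difference was called in IgG pancreas and mesenteric nodes. In IgG-treated pancreas the 3 Treg arrays read 7.70, 7.87 and 7.55 on the probe set 102630_s_at, and the 5 Teff arrays 6.98, 6.22, 6.84, 6.75 and 6.74. Every Treg array was above every Teff array, in a comparison where the groups of 14.1% of all probe sets did not overlap. The difference was 1.00 ± 0.16 (SE), 2.00-fold, with an adjusted p of 0.00496 in limma, and it stayed between 0.88 and 1.08 and called in all 8 fits that left out 1 array. With the actin 3'/5' ratio of each array, a measure of RNA quality that differed between these groups, as a covariate, Lta differed by 0.68 and was not called (adjusted p = 0.328). In bulk RNA of a sorted population, more cells that express a gene and more RNA per cell cannot be told apart. The mesenteric node gave the widest separation, with 6.84, 7.14, 7.78, 8.54 and 7.66 in CD25+ against 5.62, 5.69 and 5.70 in CD25- cells. The groups did not overlap, as for 21.5% of all probe sets in that comparison, and the CD25- arrays lay just above background. Lta rose by 1.92 ± 0.30, 3.79-fold, in mesenteric CD25+ cells (limma adjusted p = 0.00128), and by 2.03 without mesenteric CD25+ replicate 2, the array with the conflicting source name.

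In peripheral nodes Lta read 6.56, 7.25 and 7.56 in CD25+ and 6.36, 6.13 and 6.44 in CD25- cells. These groups did not overlap either (20.4% of all probe sets did not), but the difference of 0.82 ± 0.34 missed the threshold (limma adjusted p = 0.181). The mesenteric sort difference exceeded the peripheral one by 1.11 ± 0.46 (95% interval 0.13 to 2.08), with an unadjusted p of 0.0297 in limma that did not pass adjustment. Mesenteric CD25- cells lay below peripheral CD25- cells with no overlap (9.84% of all probe sets), but the difference of -0.64 ± 0.34 was not called. CD25+ cells of the 2 sites overlapped.

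Anti-ICOS-treated pancreas gave Lta values of 8.47, 7.08 and 6.74 in Treg and 6.60, 6.40 and 6.66 in Teff cells. Treg replicate 1 stood well above the others, and replicate 3 exceeded the highest Teff array only narrowly. The groups did not overlap, as for 4.91% of all probe sets. The difference of 0.88 ± 0.39 (95% interval -0.03 to 1.78) was not called. It was 0.36 without anti-ICOS Treg replicate 1 and 1.22 without replicate 3, the array with low Il2ra. The 2 IgG Treg arrays of the same set read 7.23 and 7.59, inside the anti-ICOS range, and anti-ICOS minus IgG Treg cells differed by 0.02 ± 0.44.

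**Figure D1:**
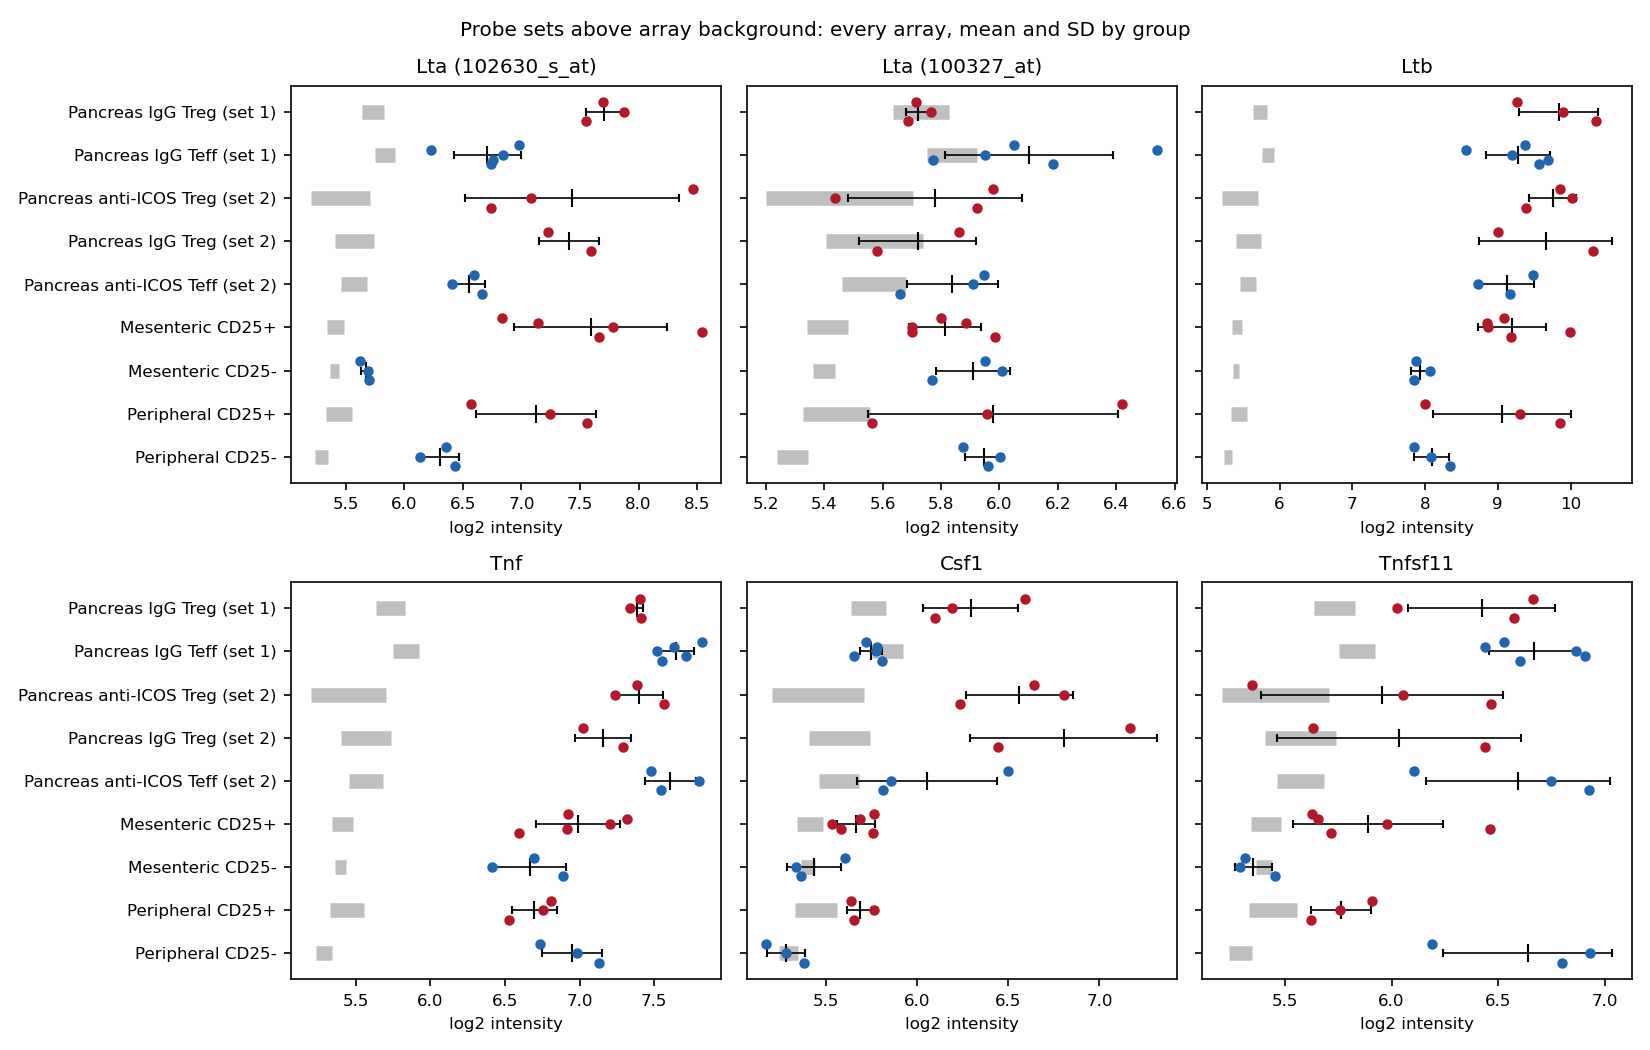
Log2 intensity of the 6 probe sets above array background, by group (red, Treg or CD25+; blue, Teff or CD25-), each point 1 array, with the group mean (tick) and SD (bar). The grey band is the range of the array background ceiling in that group; Lta (102630_s_at) in mesenteric nodes runs from 5.62 to 5.70 in CD25- and from 6.84 to 8.54 in CD25+ cells.

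The second Lta probe set, 100327_at, did not follow the first. Its values stayed within 5.44 to 6.54 over all 30 arrays, close to the background ceiling. In IgG pancreas it was lower in Treg cells by 0.38 ± 0.15, with a limma adjusted p of 0.188. The groups did not overlap, as for 14.1% of all probe sets in that comparison. Its other sort differences were -0.06 in anti-ICOS pancreas, -0.09 in mesenteric and 0.03 in peripheral nodes, none of them called. Over 29 arrays, with each set's mean subtracted, the 2 Lta probe sets had r = -0.39, a description of arrays that share sets and groups. Statements on Lta here rest on 102630_s_at, the brighter of the pair.

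Ltb, the partner that anchors lymphotoxin alpha to the membrane, was on average higher in CD25+ or Treg cells in all 4 sort comparisons, and the difference was called in 1 of them. In mesenteric nodes it read 9.08, 8.85, 8.87, 9.99 and 9.18 in CD25+ and 7.88, 8.07 and 7.85 in CD25- cells. The groups did not overlap, as for 21.5% of all probe sets, and Ltb rose by 1.26 ± 0.34, 2.40-fold (limma adjusted p = 0.0254). That call was lost in 5 of 14 fits that left out 1 node array, with adjusted p up to 0.0944. They were the fits without CD25+ replicate 4 or 5 or without any of the 3 CD25- replicates, and the difference stayed between 1.06 and 1.35 in all 14.

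Peripheral CD25- cells read 7.85, 8.08 and 8.34 for Ltb. CD25+ replicates 2 and 3 read 9.31 and 9.86, but replicate 1 lay between the first and second of the CD25- arrays, and the difference of 0.97 ± 0.38 was not called (limma adjusted p = 0.152). Without that replicate it was 1.49, with an adjusted p of 0.00386. The mesenteric and peripheral differences themselves differed by 0.30 ± 0.51.

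In pancreas, IgG Treg cells read 9.26, 9.90 and 10.35 for Ltb and IgG Teff cells 9.37, 8.56, 9.19, 9.69 and 9.57. The groups overlapped, and the difference of 0.56 ± 0.28 had a limma adjusted p of 0.302. Anti-ICOS Treg cells read 9.85, 10.02 and 9.39 and anti-ICOS Teff cells 9.48, 8.73 and 9.17, which again overlapped. The IgG Treg arrays of set 2 read 9.01 and 10.31, on both sides of the anti-ICOS Treg range. The anti-ICOS difference in Ltb was 0.63 ± 0.35, and 0.81 without Treg replicate 3.

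Tnf showed no called sort difference. In IgG pancreas the 3 Treg arrays read 7.41, 7.34 and 7.41, below all 5 Teff arrays at 7.82, 7.63, 7.52, 7.71 and 7.55. This separation was small, -0.26 ± 0.09, with an unadjusted p of 0.0166 and an adjusted p of 0.135 in limma. Groups of 14.1% of all probe sets did not overlap in that comparison. Anti-ICOS Treg cells (7.38, 7.23 and 7.57) and Teff cells (7.48, 7.80 and 7.54) overlapped, with a difference of -0.21 ± 0.15 (-0.30 without Treg replicate 3), and the IgG Treg arrays of set 2 read 7.02 and 7.29.

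In the nodes Tnf read 6.92, 7.32, 7.20, 6.92 and 6.60 in mesenteric CD25+ cells, 6.70, 6.42 and 6.89 in mesenteric CD25-, 6.81, 6.75 and 6.53 in peripheral CD25+ and 6.74, 6.98 and 7.13 in peripheral CD25- cells. Both pairs overlapped. The mesenteric difference was 0.32 ± 0.16 and the peripheral one -0.25 ± 0.18. Their difference of 0.58 ± 0.24 (limma unadjusted p = 0.0298) did not pass adjustment.

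Csf1, the growth factor of the macrophage lineage, was higher in IgG Treg than in IgG Teff cells. The Treg arrays read 6.59, 6.19 and 6.10 and the Teff arrays 5.72, 5.78, 5.77, 5.65 and 5.81. They did not overlap, as for 14.1% of all probe sets in that comparison. All 3 Treg arrays were above background against 1 of the 5 Teff arrays, so the Teff level is near or under the limit of the measurement. The measured values of Csf1 differed by 0.55 ± 0.11 (limma adjusted p = 0.0191), and by 0.40 to 0.65 in the 8 fits without 1 array, all called. With each Teff array at the higher of its value and its background ceiling, the Csf1 mean was 1.37-fold higher in Treg cells. That figure allows for background only and carries no sampling error. With the actin ratio as a covariate Csf1 was not called (limma adjusted p = 0.399).

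Peripheral CD25+ cells were also higher for Csf1, at 5.64, 5.76 and 5.65 against 5.17, 5.28 and 5.38 in CD25- cells. The difference was 0.41 ± 0.10, 1.33-fold (limma adjusted p = 0.0233), with 2 of the 3 CD25- arrays above background. The call was lost without CD25+ replicate 2 and without CD25- replicate 1 or 2, where the adjusted p was 0.103, 0.0828 and 0.0725. Mesenteric CD25+ arrays (5.76, 5.68, 5.53, 5.58 and 5.76) overlapped the CD25- arrays (5.60, 5.33 and 5.36), and their difference of 0.23 ± 0.09 was not called (limma adjusted p = 0.116). The 2 node differences were not shown to differ (-0.18 ± 0.13).

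Csf1 in set 2 read 6.64, 6.80 and 6.23 in anti-ICOS Treg, 7.17 and 6.44 in IgG Treg and 6.50, 5.86 and 5.81 in anti-ICOS Teff cells. Anti-ICOS Teff replicate 1 lay inside the Treg range, and the anti-ICOS difference was 0.51 ± 0.27 (95% interval -0.11 to 1.12), and 0.67 without Treg replicate 3. The IgG Treg array at 7.17, replicate 1, was also the only array on which Csf1r, the receptor of CSF1 and a macrophage marker, was above background, and Lyz2, a myeloid lysozyme, read 9.12 there. The part of those markers in its Csf1 value was not tested. In set 1, where Csf1 was called, 4 of 14 macrophage and dendritic cell markers were above background on at least 1 Treg array and 3 on at least 1 Teff array. Cd14, Mpeg1 and Ctss were above it on all 8 arrays and Cd83 on 2 of the 3 Treg arrays, while Csf1r and Lyz2 were above it on none. The mean level of the 14 macrophage and dendritic cell markers was 5.19 to 5.37 in Treg and 5.15 to 5.44 in Teff arrays, and their part in the Csf1 difference was not tested.

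Tnfsf11 ran in opposite directions in the 2 kinds of node, with the site taken from the titles. Mesenteric CD25+ cells read 5.62, 5.65, 5.98, 6.46 and 5.72, above all 3 CD25- arrays at 5.31, 5.29 and 5.45. Peripheral CD25+ cells read 5.91, 5.76 and 5.62, below all 3 CD25- arrays at 6.19, 6.93 and 6.80. Mesenteric CD25- cells were lowest (1 of 3 arrays above background) and peripheral CD25- cells highest.

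The peripheral difference in Tnfsf11 was -0.88 ± 0.22, 1.84-fold lower in CD25+ cells (limma adjusted p = 0.0227), and the mesenteric one was 0.54 ± 0.19 (adjusted p = 0.0887). CD25- cells of mesenteric nodes differed from those of peripheral nodes by -1.29 ± 0.22 in the measured values (limma adjusted p = 0.0106). With mesenteric CD25- arrays at the higher of their value and their background ceiling, the peripheral CD25- mean was 2.36-fold higher. That figure allows for background only and carries no sampling error. The sort differences of the 2 sites differed by 1.42 ± 0.29 (95% interval 0.80 to 2.04), a measured value that includes the group near background. That interaction had an unadjusted p of 0.000246 but an adjusted p of 0.322 in limma, where 1 of 12422 probe sets, 0.00805%, passed. Groups apart in both nodes and in opposite directions were seen for 9 of 12422 probe sets, 0.0725%. The peripheral call was lost without CD25+ replicate 2 or 3 or CD25- replicate 2 or 3, with adjusted p from 0.0702 to 0.111. The difference between CD25- cells lost its call without mesenteric CD25- replicate 1 or 2 or peripheral CD25- replicate 2 or 3, with adjusted p from 0.0624 to 0.0900.

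Tnfsf11 in pancreas was measured on all set 1 arrays. IgG Treg cells read 6.67, 6.02 and 6.58 and Teff cells 6.53, 6.44, 6.86, 6.91 and 6.60, which overlapped (difference -0.25 ± 0.16). Anti-ICOS Treg cells read 5.34, 6.05 and 6.47, IgG Treg cells of set 2 read 5.63 and 6.44, and anti-ICOS Teff cells read 6.10, 6.75 and 6.93. The anti-ICOS difference of -0.64 ± 0.35 (95% interval -1.44 to 0.16) was not called, and was -0.89 without Treg replicate 3. Treg and Teff arrays of the same replicate number were also compared as pairs. Their deviations had r = 0.59, 0.28 and 0.24, so they moved together mainly in replicate 1. Within the 3 pairs Tnfsf11 differed by -0.76, -0.69 and -0.46, lower in Treg cells in each. With the pair as a block the difference was -0.64 ± 0.11 (95% interval -0.91 to -0.37), with an unadjusted p of 0.000987 and an adjusted p of 0.741 in limma. That error and those p-values rest on a pairing that the titles do not give. The sample numbers of replicates 2 and 3 fall in different runs for Treg and Teff cells.

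**Figure D2:**
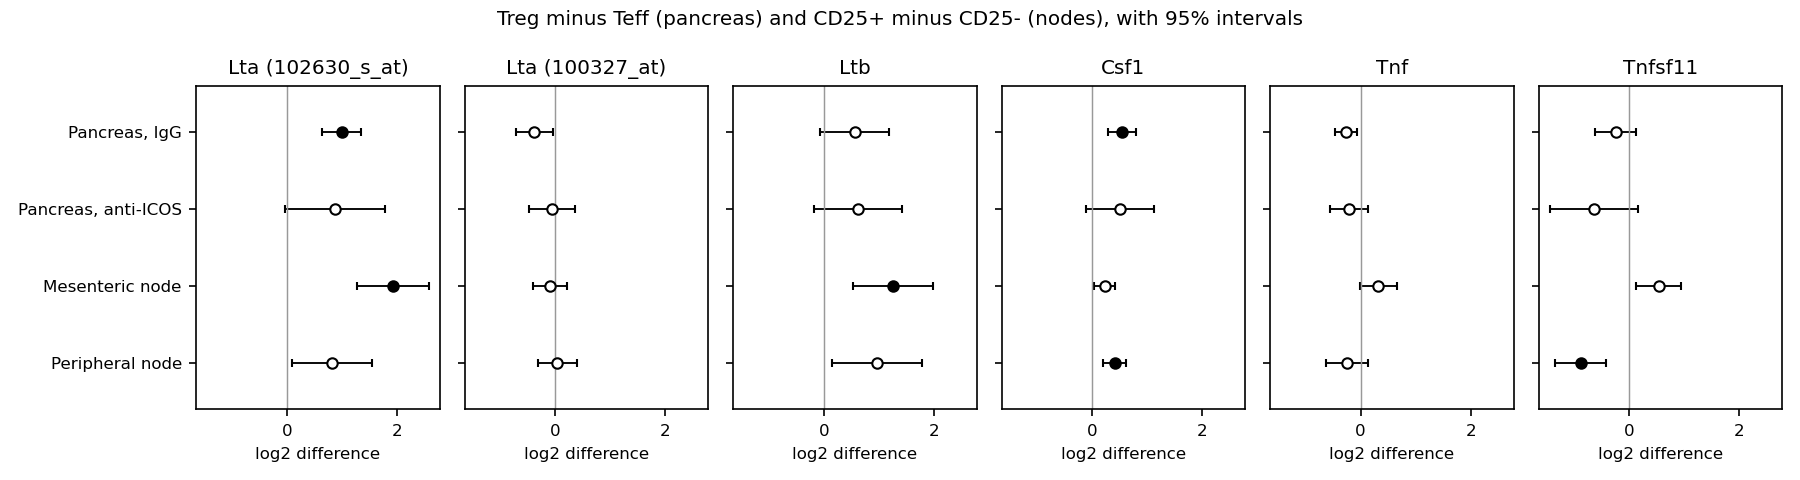
Log2 difference of Treg minus Teff (pancreas, IgG set 1 and anti-ICOS set 2) and CD25+ minus CD25- (mesenteric and peripheral nodes) for the 6 probe sets above background, with 95% intervals of the limma fit; filled points have an adjusted p under 0.05. Lta (102630_s_at) is filled at 1.00 in IgG pancreas and 1.92 in mesenteric node, and Tnfsf11 is filled at -0.88 in peripheral node.

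Il2 read between 2.36 and 3.30 on all 30 arrays, Csf2 between 2.06 and 2.98, and the 4 Il4 probe sets between 2.02 and 3.70. Every one of these values was under the background ceiling of its array. For Il2, Csf2 and Il4 the arrays therefore set no order among groups, also where a difference passed a test. A probe set that names both Ntan1 and Il2, which is not counted as a member, was also below background on every array (2.80 to 4.07). The Affymetrix control of Il4 read 2.07 to 3.04 on the 16 pancreatic arrays. Its row could not be assigned with certainty on the node arrays and was not used there.

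**Figure D3:**
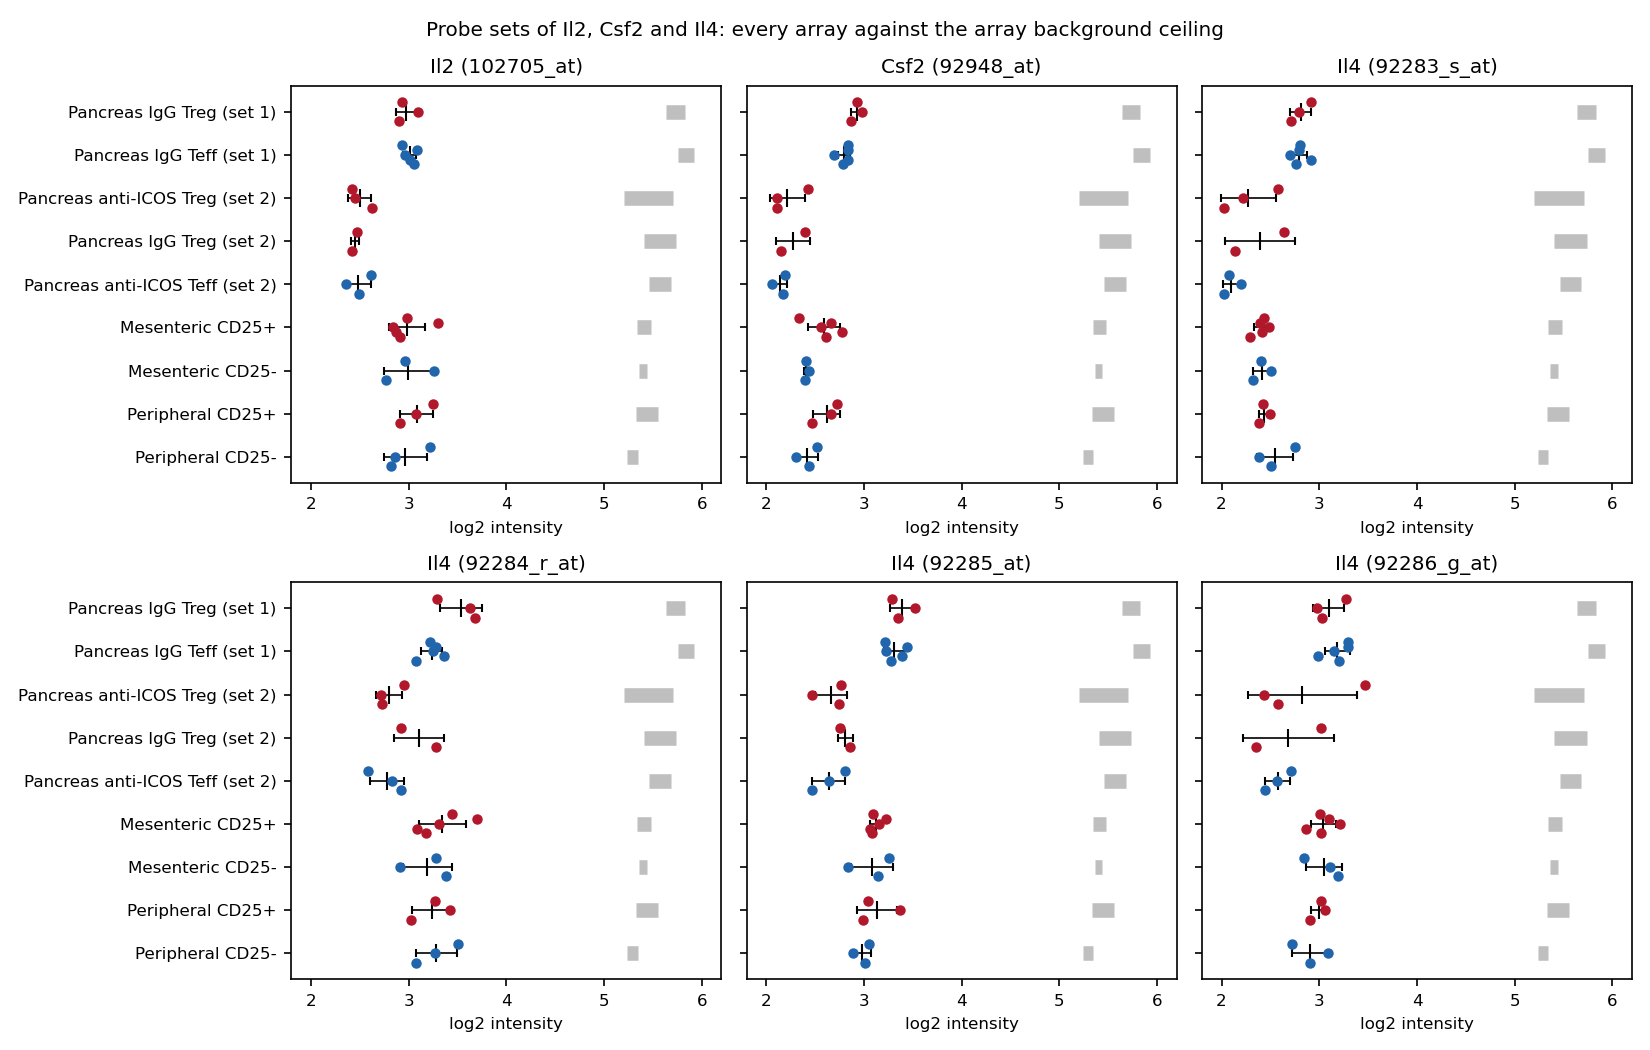
Log2 intensity of the probe sets of Il2, Csf2 and Il4 by group (points, arrays; tick and bar, mean and SD), with the range of the array background ceiling in grey. Every point lies between 2.02 and 3.70, left of the grey bands at 5.20 to 5.92.

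The counts of called members were set against the share called of all probe sets. In IgG pancreas 2 of the 12 tested probe sets passed, both higher in Treg cells (Lta and Csf1), against 6.69% of all. Mesenteric nodes also gave 2 (Lta and Ltb, both higher in CD25+ cells) against 12.2%, and peripheral nodes gave 2 (Csf1 higher, Tnfsf11 lower) against 7.69%. Medians over the 12 member probe sets were 0.05, 0.17 and 0.10 in these comparisons, beside 0.03, 0.04 and 0.05 over all probe sets. With 12 probe sets, counts of 2 do not set the members apart from these shares. Between sites, 1 of 12 passed in CD25- cells (Tnfsf11, background 0.451%) and 0 of 12 in CD25+ cells (background 0.0725%, with 532 probe sets at an unadjusted p under 0.05 in limma).

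No member passed the test for a difference with ICOS antibody. In limma, none of the 12422 probe sets (0%) passed in the 4 comparisons with anti-ICOS samples. At an unadjusted p under 0.05, 209 did in anti-ICOS Treg against Teff cells, 425 in Treg cells and 512 in Teff cells against IgG, and 327 for the interaction of treatment with cell type. None of the 12 member probe sets was among these in any of the 4. With same-numbered replicates as a block, anti-ICOS Treg against Teff cells had 717 probe sets at an unadjusted p under 0.05 and 0 called. Tnfsf11 and Csf1 (0.51 ± 0.19, unadjusted p = 0.0335 in limma) were the 2 members among the 717, in a pairing the titles do not give. For Lta, anti-ICOS minus IgG gave 0.02 (95% interval -0.99 to 1.04) in Treg cells and -0.05 (-0.71 to 0.60) in Teff cells. In Treg cells a rise as large as the IgG sort difference of 1.00 lies inside the interval, and a fall of that size just outside. In Teff cells a change of that size in either direction lies outside. For Tnf the Teff interval was narrower, -0.25 to 0.24. The gates and ages differed between anti-ICOS and IgG samples, and the Teff comparison joins sets 1 and 2, so treatment, gate and set cannot be told apart there.

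Set 1 and the node set were joined to put pancreas beside node, where tissue, treatment and set of records coincide and cannot be told apart. On that joint scale Ltb was higher in pancreatic IgG Teff than in node CD25- cells by 1.09 ± 0.26 (limma adjusted p = 0.00466) and Tnf by 0.57 ± 0.12 (adjusted p = 0.00159). They were the 2 of 12 called, against 27% of all probe sets. Markers of other cells moved in the same comparison: 4 of 5 exocrine pancreas genes were higher in pancreatic Teff cells (Prss2 by 2.25), 4 of 14 macrophage and dendritic cell genes were higher and 1 lower (Mpeg1 by 0.97), and 2 of 11 B cell genes were higher and 5 lower (Ms4a1 by -1.49). Of the T cell markers 6 of 11 were higher (Cd28 by 1.46). The part of these markers in the Ltb and Tnf values was not tested. Between pancreatic Treg and node CD25+ cells 2 of 12 were called, against 24.1%. They were Lta 100327_at (-0.56 ± 0.16, limma adjusted p = 0.0144, but 0.0549 without set 1 Treg replicate 3 and 0.297 with values as deposited) and Il2 (-0.35, below background throughout). The sort difference itself was not shown to differ between pancreas and node for any member (0 of 12 called in limma, background 2.08%, with 1763 probe sets at an unadjusted p under 0.05). For Lta (102630_s_at) that difference of differences was -0.29 ± 0.33 and for Ltb -0.68 ± 0.39.

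To order the 9 groups, all 30 arrays were quantile-normalized together, and neighbours whose means differ by less than the larger of their SDs are not separated. Lta (102630_s_at) fell into 3 levels: the 5 Treg and CD25+ groups from 7.74 ± 0.63 (SD, mesenteric, n = 5) to 7.32 ± 0.45 (peripheral, n = 3), then IgG Teff, peripheral CD25- and anti-ICOS Teff cells from 6.50 to 6.44, then mesenteric CD25- cells at 5.85 ± 0.06 (n = 3). For Ltb the 7 groups from pancreatic IgG Treg (9.72 ± 0.48, n = 3) down to anti-ICOS Teff cells (9.01 ± 0.43, n = 3) were not separated neighbour by neighbour. Node CD25- cells formed the low end for Ltb, at 8.15 ± 0.23 in peripheral and 7.95 ± 0.12 in mesenteric nodes (n = 3 each).

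Tnf had a narrow order, from 7.50 in both pancreatic Teff groups through the pancreatic Treg groups at 7.29 to 7.15 to 6.80 in mesenteric CD25- cells. Among its neighbours only IgG Treg cells of set 1 (7.23 ± 0.07, n = 3) and of set 2 (7.15 ± 0.05, n = 2) differed by more than the larger SD, by 0.08, and they share a sample. Csf1 ran from 6.82 ± 0.75 in IgG Treg cells of set 2 (n = 2) to 5.43 ± 0.10 in peripheral CD25- cells (n = 3). A step above the SD lay between anti-ICOS Treg (6.44, set 2) and set 1 IgG Treg cells (6.09). Treatment, gate and set cannot be told apart there. The sample in both sets read 6.10 in set 1 and 6.44 in set 2 before this normalization. Within set 2, anti-ICOS minus IgG Treg cells gave -0.24 ± 0.30 (SE) for Csf1. Another step lay between mesenteric CD25+ (5.80) and mesenteric CD25- cells (5.61). That difference was not called in limma, and 1 of the 3 CD25- arrays was above background. For Tnfsf11 no neighbours were separated, although the ends were, at 6.77 ± 0.33 in peripheral CD25- and 5.54 ± 0.07 in mesenteric CD25- cells (n = 3 each).

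Lta on its brighter probe set and Ltb varied together, while Tnf, their neighbour on the chromosome, had little correlation with either. Over 29 arrays with set means subtracted, Lta (102630_s_at) and Ltb had r = 0.80, whereas Tnf had r = -0.08 with Lta and -0.13 with Ltb. The dimmer Lta probe set, 100327_at, went the other way, with r = -0.55 with Ltb. Tnf had r = 0.52 with Tnfsf11, and Csf1 had r = 0.51 with Lta and -0.55 with Tnfsf11. The arrays share groups and sets, and these are descriptions without a test. By the same measure the patterns most like Lta were those of Tspan31 (r = 0.92), Cd2 (0.90) and Sin3b (0.89), and those most like Ltb were Pura (0.94), Traf1 (0.93) and Cd6 (0.92). Csf1 was most like Itgae (0.88), Aopep (0.87) and Entpd1 (0.86), and Tnfsf11 most like Cyth3 (0.77), Nr4a1 (0.76) and Myb (0.76). The likeness was lowest for Tnf, with Smim14 (0.70), Rpl22 (0.69) and Ppp4c (0.68).

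Of 13 measured receptor genes of these cytokines, 2 rose in IgG Treg cells (Il2ra and Tnfrsf1b, the second TNF receptor, by 1.94 ± 0.13). The 3 that rose in mesenteric CD25+ cells were Il2ra, Tnfrsf1b (1.14 ± 0.15) and Il2rb (0.31 ± 0.09), and the 2 in peripheral CD25+ cells were Il2ra and Tnfrsf1b (0.73 ± 0.17). None fell. Of all probe sets, 6.69%, 12.2% and 7.69% changed in either direction in these comparisons, and Il2ra encodes the protein used for the sort. The list's median difference was 0.01 in IgG pancreas, 0.13 in mesenteric and 0.15 in peripheral nodes, beside 0.03, 0.04 and 0.05 over all probe sets.

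Among 7 other TNF superfamily ligands none passed in IgG pancreas or peripheral nodes (1 and 1 at an unadjusted p under 0.05 in limma). In mesenteric CD25+ cells Tnfsf10, which encodes TRAIL, rose by 0.28 ± 0.08 and Fasl, the death ligand of Fas, fell by 0.42 on the log2 scale. Of 11 other T cell cytokines 1 rose in IgG Treg cells, Il10 by 2.30 ± 0.19, and none passed in either node in limma (2 in mesenteric and 1 in peripheral nodes at an unadjusted p under 0.05).

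Of 17 measured genes of NF-kB and TRAF signalling, 5 were higher and 3 lower in mesenteric CD25+ cells, with a list median of 0.26 beside 0.04 over all probe sets, of which 12.2% changed. The largest were Traf1, a TRAF adaptor induced by NF-kB (1.34 ± 0.27), Nfkbia, the inhibitor of NF-kB (0.90 ± 0.17), and Birc2, a ubiquitin ligase bound to TRAF proteins (-0.83 ± 0.14). In peripheral nodes 1 of 17 changed, Birc2 (-0.92 ± 0.16), and in IgG pancreas none did in limma (3 at an unadjusted p under 0.05). For the difference between the nodes none of the 17 passed either (2 at an unadjusted p under 0.05).

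Of 18 measured NFAT, AP-1 and lineage factors, 3 rose and 3 fell in IgG Treg cells, beside 6.69% of all probe sets called in either direction. The largest were Prdm1, a repressor of cytokine genes (1.85 ± 0.12), and the calcineurin subunits Ppp3ca (1.15 ± 0.27) and Ppp3r1 (-1.12 ± 0.16). Mesenteric CD25+ cells had 1 higher and 3 lower, beside 12.2% of all probe sets. The lower ones were the calcineurin subunit Ppp3cb (-1.28 ± 0.24) and the immediate early genes Egr1 (-1.03 ± 0.30) and Egr2 (-0.63 ± 0.17). In peripheral CD25+ cells Gata3, the T helper 2 factor that drives Il4, rose by 0.62 ± 0.16 and Egr2 changed by -1.55 ± 0.19, beside 7.69% of all probe sets. Gata3 was also called higher in IgG Treg (0.71 ± 0.14) and mesenteric CD25+ cells (0.48 ± 0.14). Egr2 was the single gene of the 5 pathway lists called between CD25- cells of the 2 sites, lower in mesenteric nodes by 1.06 on the log2 scale (SE 0.19), in the comparison where Tnfsf11 was lower too.

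The sample numbers in the labels form 5 separate runs (A to E), of which D and E hold the nodes. Run E also holds IgG Treg replicate 1 of pancreas set 2. Within run D the mesenteric difference in Lta (102630_s_at) was 1.33 and within run E 2.29. The peripheral differences were 0.51 and 1.43. For Ltb the mesenteric difference was 0.99 in run D and larger in run E, and the peripheral ones were 0.56 and 1.78. Lta and Ltb were therefore higher in CD25+ cells within both runs, by a wider margin in run E. Tnfsf11 kept its direction within runs too, at -0.66 and -1.31 in peripheral nodes, 0.34 and 0.60 in mesenteric nodes and -1.19 and -1.48 between CD25- cells. Within the runs A, B and C of IgG pancreas Lta differed by 1.10, 1.03 and 0.80, Csf1 by 0.84, 0.42 and 0.37 and Tnf by -0.32, -0.18 and -0.22. Anti-ICOS and IgG Treg cells of set 2 shared only run C, with 1 array each (anti-ICOS replicate 3, IgG replicate 2). There anti-ICOS minus IgG was -0.85 for Lta (102630_s_at), -0.92 for Ltb, -0.21 for Csf1, 0.28 for Tnf and 0.03 for Tnfsf11. That anti-ICOS array is the one with Il2ra near the Teff level. In runs A and B the anti-ICOS Treg arrays read 8.47 and 7.08 for Lta (102630_s_at). The IgG Treg arrays of set 1 in those runs read 7.70 and 7.87, so the direction was not the same across runs. A run holds 1 to 3 arrays of a group, so these are values without a test.

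**Figure D4:**
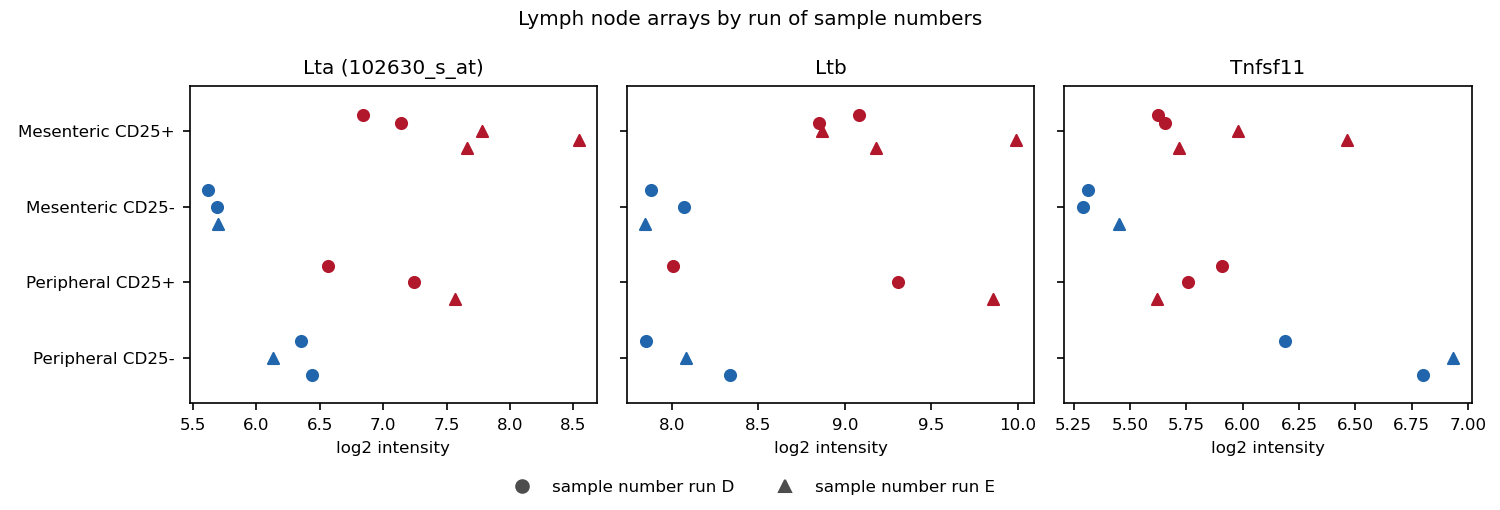
Log2 intensity of Lta (102630_s_at), Ltb and Tnfsf11 in the 14 lymph node arrays by group (red, CD25+; blue, CD25-), circles for sample number run D and triangles for run E. In both runs mesenteric CD25+ arrays lie above CD25- arrays for all 3 genes, and peripheral CD25+ arrays lie below CD25- arrays for Tnfsf11.

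RNA quality and other cell types moved with some groups. The 3'/5' ratio of actin, a log2 measure of how far RNA or amplified product is shortened, averaged 3.75 in IgG Treg and 2.65 in IgG Teff arrays. With that ratio as a covariate 86 of 12422 probe sets were called in limma, against 831 without it. In mesenteric nodes the ratio averaged 2.85 in CD25+ and 2.63 in CD25- arrays, and in peripheral nodes 3.02 and 2.54; its part in the node results was not tested. The B cell marker list, measured with 11 of 12 genes, had mean levels of 5.04 to 5.21 in IgG Treg against 4.80 to 4.97 in Teff arrays and of 4.95 to 5.10 in mesenteric CD25+ against 4.67 to 4.95 in CD25- arrays. In peripheral nodes it was 4.83 to 5.41 against 4.70 to 5.24. Of its 11 genes, 3 rose in IgG Treg cells (Ighm by 0.74, Cd79b by 0.69 and Blk by 0.58) and 2 in mesenteric CD25+ cells (Blk by 1.59 and Cd79b by 1.07), where B cells also express lymphotoxins. Ms4a1, which encodes the B cell antigen CD20, was above background on 0 of 8 arrays of set 1, and in mesenteric nodes it averaged 6.14 in CD25+ and 6.58 in CD25- cells. The part of B cell markers, Ms4a1 included, in the Lta and Ltb values was not tested.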

How the data were processed

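RNA of FACS-sorted cells, taken up in Trizol, was hybridized per the labels. 2 rounds of amplification are named in the labels of 9 arrays, the 8 of pancreas set 1 and 1 of the lymph nodes. The deposited table gave a linear intensity per probe set. RMA (no version) is named for set 2 and the nodes per the submitters' processing notes, while the steps for set 1 were not given in the sources used here. Each deposited intensity was converted to log2. The 66 control probe sets were left out of tests, and 10833 of the other 12422 named 1 symbol, 396 several and 1193 none. limma 3.58.1 in R 4.3.3 (lmFit, eBayes, two-sided) gave 13 comparisons, each pancreatic set and the nodes fitted separately. Joint fits (15 pancreatic arrays, or set 1 with nodes) were quantile-normalized first. Errors are SE for differences and SD for groups.

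Genes named are the 8 members, their 3 most alike probe sets by Pearson's r, and up to 3 of the largest called differences per pathway list. Members and lists were chosen with earlier results of these data known. Node controls were stored in another order (r = 0.254 with set 1, 0.952 after reordering by letter case), which affects the actin ratio and the Il4 control. Anti-ICOS Treg and Teff arrays of the same replicate number had deviations with r = 0.59, 0.28 and 0.24 and were taken as pairs in the replicate block. Only those of replicate 1 share a run of sample numbers. The fits were tested on simulated data. Alternatives were an intensity offset, a filter on dim probe sets, trend and robust settings, quantile normalization or values as deposited, number run, replicate and actin terms, and leaving out each array.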

Additional observations from a re-analysis of the deposited data

Results flagged for a closer look

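Tnfsf11 is the single member whose sort difference pointed in opposite directions in the 2 kinds of node in every array. All 5 mesenteric CD25+ arrays were above all 3 mesenteric CD25- arrays, and all 3 peripheral CD25+ arrays were below all 3 peripheral CD25- arrays. Such an opposed separation was seen for 9 of 12422 probe sets, 0.0725%. The sort differences differed by 1.42 ± 0.29 on the log2 scale. The interaction in limma had an unadjusted p of 0.000246 and an adjusted p of 0.322, so the difference was tested and did not pass over 12422 probe sets. Leaving out 1 node array at a time gave 1.27 to 1.64 for Tnfsf11, lowest without peripheral CD25- replicate 2 or mesenteric CD25+ replicate 4 and highest without peripheral CD25- replicate 1. 1 of the 3 mesenteric CD25- arrays was above background. The site rests on the titles, as the arrays titled peripheral have mesenteric as their tissue. Il2ra checks the sort and not the site. Over 24 checks of member probe sets in groups of 4 or more arrays, 0 found an array far from its group, where chance alone flags about 1 in 20. Only IgG Teff and mesenteric CD25+ cells (n = 5 each) form such groups. Groups of 2 or 3 arrays, all Treg groups among them, could not be checked. The probe sets checked include those of Il2, Csf2 and Il4, which were below background.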

How the results depend on the processing

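Over 13 comparisons the count of member probe sets called stayed within 1.5 times its value except as follows. With the actin ratio as a covariate, the IgG Treg count went from 2 to 0. With a replicate block, the mesenteric count went from 2 to 1 (832 of all probe sets called against 1514) and Ltb to 1.00 (limma adjusted p = 0.0883), while peripheral Lta gained a call (adjusted p = 0.0230). Same-numbered CD25+ and CD25- node arrays had r of 0.0259 to 0.323 in mesenteric and 0.0150 to 0.230 in peripheral nodes. Node numbers were not taken as pairs. The block changed no call in the anti-ICOS pairs. With values as deposited, sets on different scales were compared directly, and counts became 6 for Teff anti-ICOS minus IgG, 6 for pancreas Treg minus node CD25+ and 9 for pancreas Teff minus node CD25-. A filter on dim probe sets made the second of these 1, as it removes Il2. The values as deposited also reversed 7 differences of probe sets below background, each called in the reversed direction. In Teff anti-ICOS minus IgG they were Csf2 (-0.65), Il2 (-0.52) and 3 of Il4 (-0.46, -0.69 and -0.61). Against nodes they were Il4 in Treg (0.26) and Teff cells (0.21).

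Leaving out 1 array gave counts of 2 to 3 in IgG pancreas, 1 to 2 in mesenteric and 0 to 3 in peripheral nodes, 0 to 1 between CD25- cells of both sites, 1 to 3 for pancreas Treg minus node CD25+, 2 to 3 for pancreas Teff minus node CD25-, and 0 in every other comparison. Over single members, 3108 other values kept their side of the threshold, 23 gained a call, 24 lost one and 7 reversed. A reversal was counted only where the main or the alternative fit was called. The 3108 can therefore include changes of sign between uncalled values. A fixed number run block could not be fitted for the pancreas against node comparisons and was not run; a random block, added after seeing the data, stood in. Signal near background limits Csf1, Tnfsf11 and Lta 100327_at, and bars Il2, Csf2 and Il4.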
